A study of Mus musculus with 6 samples.

Results

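Pol II occupancy was examined at 8 listed oligodendrocyte lineage genes, Olig1, Olig2, Pdgfra, Cspg4, Nkx2-2, Sox10, Bcas1 and Omg, by taking every row of the count table with one of these symbols. Of the 8 genes, 5 (Olig1, Olig2, Cspg4, Sox10 and Omg) had rows, each with a promoter, a gene body and a TES region, which gave 15 of 36321 regions and 5 of 12107 genes. Pdgfra, Nkx2-2 and Bcas1 were not analysed here. The rule uses gene symbols and no measured value.

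The data were POLR2A ChIP-seq read counts from Armc5 KO and WT mouse NPCs, in 3 KO and 3 WT libraries numbered as replicate pairs 1 to 3. POLR2A, also called RPB1, is the largest Pol II subunit, ARMC5 is the substrate receptor of a ubiquitin ligase that acts on it, and the comparison asked whether loss of ARMC5 altered Pol II on genes. KO cells were Armc5(-/-), with both alleles deleted, and WT cells carried the intact gene. Both groups shared the strain, 129 sv X CD1 by the labels and a cross of CD1 and C57BL/6 by the study's methods, the e13.5 stage, an origin in the ganglionic eminences of the fetal brain according to the labels, and culture as second-passage neurospheres with epidermal growth factor. Neurospheres are mixed, growth factor-selected cultures, and the labels do not say whether a library came from 1 fetus or from pooled fetuses. The pairs are called biological replicates, but how a pair was formed is not stated. Armc5 itself was not analysed here and could not serve to check the labels.

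Oligodendrocytes, the myelin-forming glia of the central nervous system, arise from neural precursors through a proliferating precursor cell. OLIG1 and OLIG2 are basic helix-loop-helix transcription factors; OLIG2 is needed to specify oligodendrocytes and is also made by ventral precursors that have not yet chosen a glial fate, in the ganglionic eminences among other places. SOX10 is an HMG-box factor that acts after OLIG2 and drives myelin genes, CSPG4 (NG2) is a surface proteoglycan that marks oligodendrocyte precursors and pericytes, and OMG is a membrane-anchored myelin glycoprotein whose gene lies within an intron of the tumour suppressor gene Nf1. Signal in Olig1 and Olig2 therefore does not by itself mark committed oligodendrocyte precursors.

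In the RefSeq annotation of GRCm38.p6, Olig2 (chr16:91225550-91228677) and Olig1 (chr16:91269769-91271939) lay on the plus strand 41091 bases apart. Cspg4 lay at chr9:56865104-56899870 on the plus strand, Sox10 at chr15:79154913-79164490 on the minus strand and Omg at chr11:79500982-79504082 on the minus strand. The promoter was counted from 400 bases upstream to 100 bases downstream of the start of transcription (TSS), the gene body from there to 100 bases before the end of the transcript (TES), and the TES region from 100 bases before to 2000 bases after it. The promoter and TES windows are thus 500 and 2100 bases long in every gene, whereas the bodies by RefSeq were 1971 bases in Olig1, 2928 in Olig2, 34567 in Cspg4, 9378 in Sox10 and 2901 in Omg.

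RefSeq promoter sequence was at hand for Olig2 and Cspg4, and the other members with counts are named only. By the RefSeq starts, both stretches lay inside the promoter windows. Both are shown because no other member with counts had a sequence at hand. Olig2 had the highest promoter signal of the set and Cspg4 close to the lowest, but letters were not compared with signal. The stretches run 5′ to 3′ from 250 bases before to 50 bases after the start, at chr16:91225300-91225599 and chr9:56864854-56865153 (GRCm38.p6, plus strand). Capitals mark the letters of the GC box (GGGCGG), the TATA box (TATAAA) and the CCAAT box (CCAAT), each searched on both strands.
Olig2: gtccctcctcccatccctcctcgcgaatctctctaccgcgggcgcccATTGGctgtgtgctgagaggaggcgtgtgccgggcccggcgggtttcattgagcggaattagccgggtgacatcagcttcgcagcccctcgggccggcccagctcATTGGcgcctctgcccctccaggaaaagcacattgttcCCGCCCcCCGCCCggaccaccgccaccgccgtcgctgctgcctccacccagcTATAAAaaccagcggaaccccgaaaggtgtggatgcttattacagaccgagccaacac
Cspg4: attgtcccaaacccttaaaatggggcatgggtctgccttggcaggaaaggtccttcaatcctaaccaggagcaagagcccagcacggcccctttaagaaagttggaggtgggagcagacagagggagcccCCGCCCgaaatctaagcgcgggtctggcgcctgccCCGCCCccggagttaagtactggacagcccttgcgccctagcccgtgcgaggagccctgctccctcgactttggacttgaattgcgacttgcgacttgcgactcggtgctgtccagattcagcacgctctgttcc
The Olig2 stretch had 65% G and C and 25 CpG dinucleotides, with 2 GC boxes, 2 CCAAT boxes and 1 TATA box by these letters. The Cspg4 stretch had 60% G and C and 17 CpG, with 2 GC boxes and no match to the other words. Over 32851 RefSeq promoters of the same length the median was 52.7% G and C and 7 CpG, and a GC box stood in 35.7%, a CCAAT box in 37.4% and a TATA box in 13.6% of them. The E-box letters CANNTG, the kind of word that basic helix-loop-helix factors read, had no match in either stretch, against 72.3% of promoters with at least 1. A match is a description of letters only.

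The libraries held between 16056262 and 25199455 counts in KO NPCs and between 14528870 and 23808344 in WT NPCs. Pair 3 had lower promoter shares (6.88% in KO, 6.04% in WT) than the other 4 libraries (10.9% to 12.2%). The promoter of 1 gene, Gm10800, took 31.4% of promoter counts in KO 3 and 20.4% in WT 3, against 1.71% to 8.43% in the other 4. The 4 Y-linked genes counted gave 0.619 CPM in WT 3 against 124 to 234 CPM in the other 5 libraries. KO and WT of pair 3 thus also differed in Y-linked signal, which the pair as a block does not remove. The values below are CPM (counts relative to the library total) after TMM scaling, and with neither input nor spike-in libraries in use, a shift shared by all genes would not show. In these bulk cultures, fewer cells of a type and less Pol II per cell cannot be told apart. Of the listed cell markers, rows were at hand for 11 of 12 of neural stem cells, 8 of 10 of neurons, 4 of 7 of astrocytes, 1 of 9 of endothelial and mural cells (Kdr), 1 of 7 of mesenchymal cells (Prrx1) and 0 of 9 of microglia and blood, and the other listed markers were not analysed here.

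Pol II density over the gene bodies of Olig2 and Olig1 was among the highest of the genes ranked. Both bodies are short, and signal near the start can weigh more in a short body than in a long one. The ranks were not matched for length. Per kilobase, the Olig2 gene body carried 28.2 ± 24.3 CPM in KO and 30.6 ± 28.6 CPM in WT NPCs (SD, n = 3 each), rank 15 of 11739 genes with a body of at least 1000 bases. The Olig1 body carried 24.4 ± 19.2 CPM per kilobase in KO and 22.2 ± 20.7 in WT NPCs, rank 25. Omg (4.09 ± 1.63 in KO and 3.37 ± 1.38 in WT), Sox10 (2.92 ± 0.225 in KO and 3.29 ± 0.902 in WT) and Cspg4 (2.04 ± 0.116 in KO and 1.94 ± 0.151 in WT) came at ranks 1170, 1573 and 3291. Pair 1 carried much of the Olig1 and Olig2 levels. Without it, a setting chosen after seeing the data, the Olig2 body had 14.2 CPM per kilobase in KO and 14.1 in WT NPCs (rank 70) and the Olig1 body 13.47 in KO and 10.43 in WT NPCs (rank 95), while Omg, Sox10 and Cspg4 came at ranks 1614, 1633 and 3159. Within libraries, the Olig2 body lay above the Olig1 body in 5 of 6, with KO 3 the exception, and Omg lay above Sox10 in 5 of 6, with WT 2 the exception. All 6 Sox10 body values (2.30 to 4.06 CPM per kilobase) lay above all 6 of Cspg4 (1.79 to 2.12). The TES region of Olig2 ranked 12 and that of Olig1 226, but their promoters ranked only 217 and 682 (without pair 1, 113 and 797 for the TES regions and 458 and 2670 for the promoters), and the promoters of Omg, Cspg4 and Sox10 stood at 8520, 8805 and 10935 of the same 11739.

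**Figure D1:**
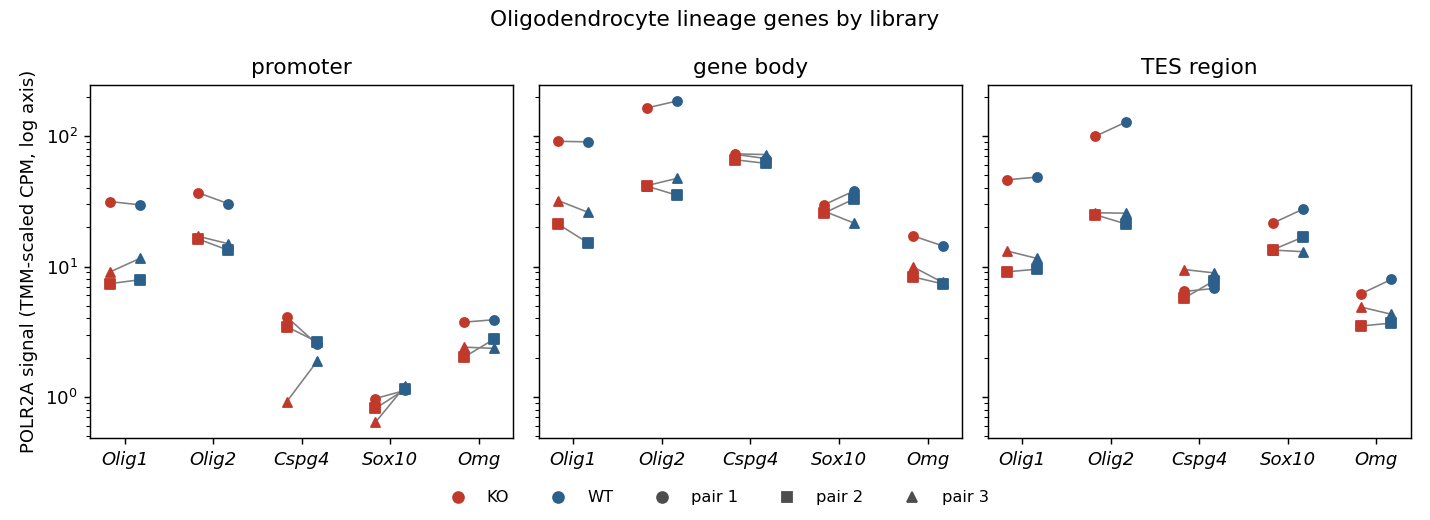
POLR2A signal of the 5 genes in TMM-scaled CPM (log axis) in the promoter, gene body and TES region, with KO libraries left (red) and WT libraries right (blue) and a grey line joining the libraries of a pair. At Olig1 and Olig2 both libraries of pair 1 (circles) lie well above pairs 2 and 3, whereas the Cspg4 gene body lies between 61.9 and 73.1 CPM in all 6 libraries.

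None of the 15 regions differed between KO and WT NPCs at an adjusted p under 0.1 (limma-voom with the pair as a block, two-sided, Benjamini-Hochberg over all regions), where 49 of 36321 regions did (0.135%), 44 higher and 5 lower in KO. At an unadjusted p under 0.05 stood 2 of the 15, the Olig2 promoter and the Sox10 TES region, beside 8.2% of all regions. A single sign in all 3 pairs was seen in 5 of the 15, beside 30.2% of all regions: the gene bodies of Olig1, Cspg4 and Omg and the Olig2 promoter were higher in KO in each pair, and the Sox10 promoter was lower. KO and WT libraries did not overlap in 1 of the 15, the Sox10 promoter, beside 2.92% of all regions. edgeR also called none of the 15, with 2 at an unadjusted p under 0.05, beside 2833 of 36321 regions. DESeq2 gave no adjusted p for the promoters of Cspg4, Sox10 and Omg and called none of the others. It had 0 of the 15 at an unadjusted p under 0.05, beside 873 of 36314 regions.

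Median log2 fold changes of the 5 genes were -0.03 in promoters, 0.08 in gene bodies and -0.16 in TES regions, against 0.03, -0.01 and -0.08 over all 12107 genes. All 5 TES estimates were below 0, as were 3 of 5 promoter and 2 of 5 gene body estimates. The 95% intervals reached from a fold change of 0.450 (Sox10 promoter) to 1.84 (Cspg4 promoter), and the narrowest, of the Cspg4 gene body, ran from 0.953 to 1.17.

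**Figure D2:**
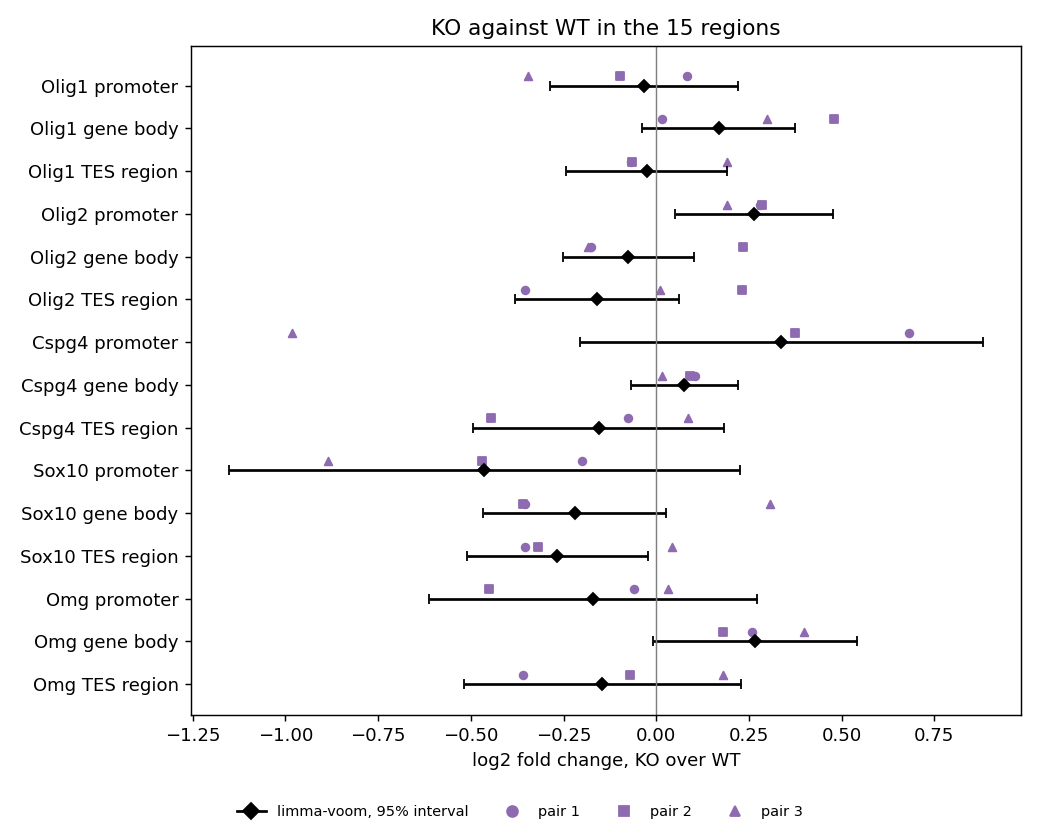
Log2 fold change of KO over WT in the 15 regions, with the limma-voom estimate (diamond), its 95% interval (bar) and the 3 single pairs (purple). Only the intervals of the Olig2 promoter (0.05 to 0.48) and the Sox10 TES region (-0.51 to -0.02) leave out 0, and neither passed after adjustment.

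With all 6 libraries, the Olig2 promoter had the smallest p of the 15 regions. It had 36.8, 16.3 and 17.1 CPM in KO 1 to 3, against 30.3, 13.3 and 14.9 CPM in WT 1 to 3. KO was higher within each pair, yet the groups overlapped because pair 1 lay above the rest in both genotypes. The log2 fold change was 0.26 ± 0.10 (SE, adjusted p = 0.505, limma-voom), and it stayed between 0.25 and 0.30 when libraries were left out.

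Over the body of Olig2 this difference was not seen. The gene body had 165, 41.4 and 41.8 CPM in KO and 186, 35.2 and 47.4 CPM in WT libraries 1 to 3 (log2 fold change -0.08 ± 0.08, adjusted p = 0.844). KO was lower in pairs 1 and 3 and higher in pair 2. The TES region had 100.0, 24.9 and 25.8 CPM in KO and 128, 21.2 and 25.7 CPM in WT (-0.16 ± 0.10, adjusted p = 0.725). Without pair 1 the sign turned in both, to 0.06 in the body and 0.15 in the TES region, neither of them called. Nearly the whole Olig2 TES window (99.9%) was also covered by Gm52261, an lncRNA gene annotated on the minus strand, and ChIP-seq reads carry no strand of transcription, so the signal there cannot be given to either gene.

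Olig1, which cooperates with Olig2 in precursor maturation, had a promoter signal of 31.5, 7.39 and 9.06 CPM in KO and 29.7, 7.91 and 11.5 CPM in WT libraries (-0.03 ± 0.12, adjusted p = 0.962). Its gene body had 91.4, 21.1 and 32.0 CPM in KO and 90.4, 15.1 and 26.0 CPM in WT libraries. The body was higher in KO in every pair, by 0.01, 0.48 and 0.30 on the log2 scale in pairs 1 to 3, and the groups overlapped (0.17 ± 0.10, adjusted p = 0.678). That estimate was 0.41 without pair 1 (adjusted p = 0.142, limma-voom), 0.39 without KO 1 (adjusted p = 0.109, limma-voom) and 0.0648 without KO 2, and it was called in none of these. With the pair as a block, leaving out KO 1 nearly repeats leaving out pair 1, since WT 1 then has no partner. The TES region had 46.3, 9.11 and 13.2 CPM in KO and 48.5, 9.54 and 11.5 CPM in WT, with no common direction (-0.03 ± 0.10, adjusted p = 0.964). The ratio of Olig2 to Olig1 body density was 1.21, 1.32 and 0.879 in KO, against 1.39, 1.57 and 1.23 in WT, thus lower in KO in each pair. The promoter ratio of the 2 genes went the other way, with 1.17, 2.20 and 1.88 in KO and 1.02, 1.69 and 1.30 in WT. The TES ratio had no common direction, with 2.16, 2.74 and 1.96 in KO and 2.63, 2.23 and 2.23 in WT. These ratios come from the same counts and were not tested.

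The variation that dominated Olig1 and Olig2 ran between replicate pairs and not between genotypes. In the Olig2 gene body, KO 1 was 3.98 and 3.94 times KO 2 and KO 3, and WT 1 was 5.29 and 3.92 times WT 2 and WT 3. The Olig1 gene body gave 4.33 and 2.86 times in KO and 5.98 and 3.48 times in WT. With both genotypes averaged and 0.5 CPM added, pair 1 exceeded the mean of pairs 2 and 3 by 2.07 (Olig2) and 1.98 (Olig1) on the log2 scale, rank 1 and rank 4 of 12096 gene bodies with at least 1 CPM (rank 6 and rank 9 with 0.05 CPM added). The TES regions gave 2.19 (rank 3) and 2.09 (rank 4) of 12022, and the promoters 1.10 (rank 230) and 1.74 (rank 12) of 11222. The median gene body differed by -0.12, the median TES region by -0.03 and the median promoter by 0.42. Promoters were thus higher in pair 1 in general (78.8% of 11222), which enters the promoter values of Olig1 and Olig2. These ranks describe the libraries and carry no test.

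The other 3 genes did not share this pattern to the same degree. The Omg gene body exceeded by 0.89 (rank 174) and the Sox10 gene body by 0.34 (rank 1855), whereas the Cspg4 gene body differed by 0.04 (rank 4539) and spanned only 0.19 on the log2 scale over the 3 pairs. The spread of pairs was 2.18 for the Olig2 body and 2.32 for the Olig1 body, against a median of 0.54 and a 95th percentile of 1.50 over all gene bodies. The KO and WT estimates for these 2 bodies, 0.08 and 0.17 in size, were many times smaller than that.

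**Figure D3:**
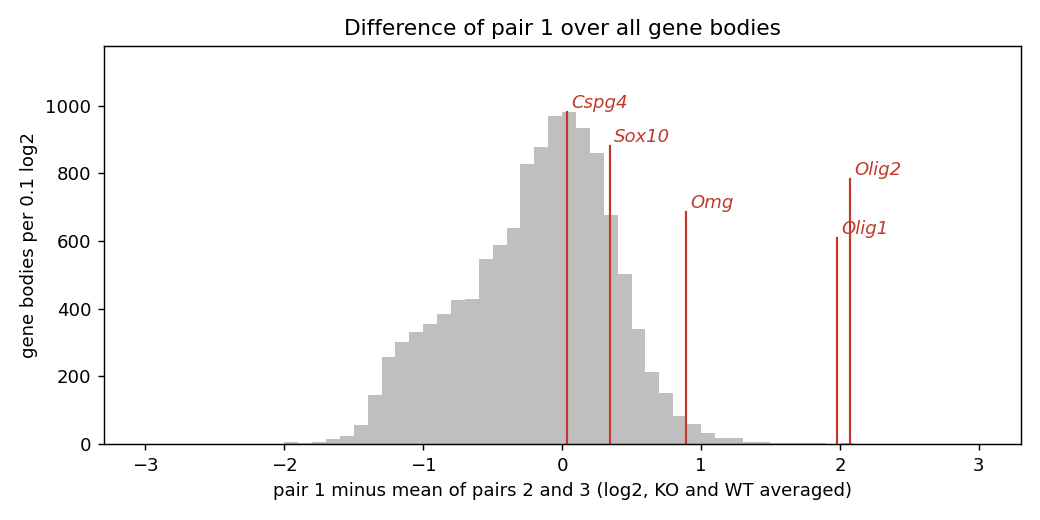
Histogram of the difference between pair 1 and the mean of pairs 2 and 3 (log2, KO and WT averaged) over 12096 gene bodies, with the 5 lineage genes as red lines whose height has no meaning. Olig2 (2.07) and Olig1 (1.98) lie in the far right tail and Cspg4 (0.04) in the middle.

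Over all 12096 gene bodies, 40.6% were higher in pair 1. Of the neural stem cell markers, 10 of 11 counted gene bodies were higher in pair 1, with a median of 1.01, and their summed level ranged from 860 to 1746 CPM in KO and from 912 to 1837 CPM in WT. Of the neuron markers, 1 of 8 was higher, with a median of -1.16, and the sum ranged from 1082 to 1419 CPM in KO and from 1160 to 1499 CPM in WT. No counted marker of either list was at 0 in all libraries, but genes that lacked signal in KO cells had already been removed by the authors. Of the 4 astrocyte markers counted, 2 were higher, with a median of 0.04. In the wider lists of the lineage, 14 of 20 fate regulators (median 0.32), 6 of 18 signals and receptors (-0.38), 9 of 13 genes of the precursor surface and matrix (0.68) and 4 of 16 genes of myelin and maturing oligodendrocytes (-0.37) were higher in pair 1. Among genes picked after their values were seen, Fabp7, a fatty acid binding protein of radial glia, had 109, 30.7 and 26.5 CPM in KO and 113, 36.1 and 20.6 CPM in WT libraries 1 to 3. Stmn2, a neuronal microtubule regulator, had 14.2, 62.6 and 50.1 CPM in KO and 14.4, 54.4 and 56.5 CPM in WT. Low values in pair 1 were not confined to neuron markers, since the gene bodies of Kdr and Prrx1 differed by -1.07 and -0.82. The lists were not matched for signal density. Stmn2 had 0.81 and Kdr 0.66 CPM per kilobase over all libraries, against 16.8 for Fabp7. The parts of cell makeup and of signal density in the pair difference of Olig1 and Olig2 were not tested.

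**Figure D4:**
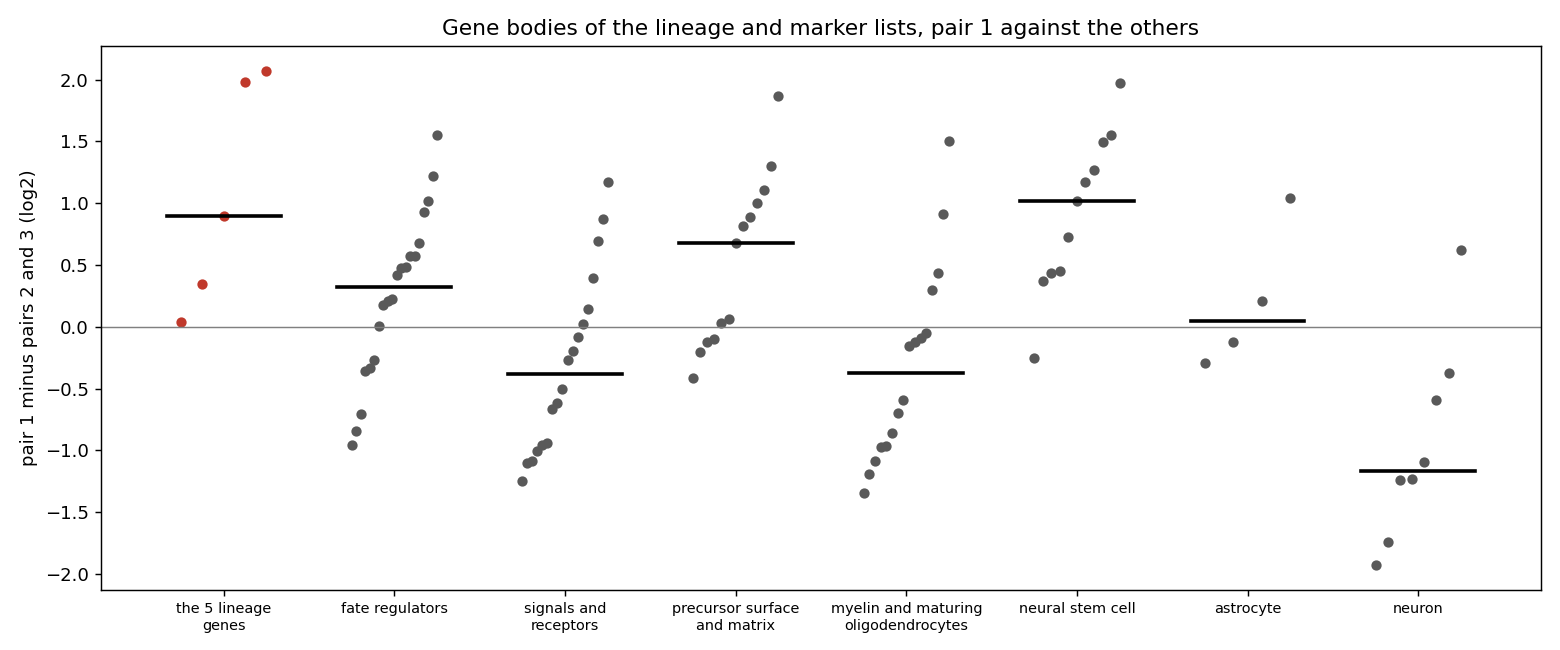
Difference between pair 1 and the mean of pairs 2 and 3 (log2) for each counted gene body of the lineage genes (red), the 4 wider lists and 3 lists of cell markers, with a bar at each median. The neural stem cell list has its median at 1.01 and the neuron list at -1.16, and the 5 lineage genes at 0.89.

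Cspg4, the marker of precursor cells, had the gene body with the smallest spread over the pairs among the 5 members, but not the promoter. The gene body had 72.5, 65.9 and 73.1 CPM in KO and 67.4, 61.9 and 72.3 CPM in WT libraries 1 to 3 (log2 fold change 0.08 ± 0.07, adjusted p = 0.802). KO was slightly higher in each pair and the groups overlapped. The promoter had 4.10, 3.45 and 0.920 CPM in KO and 2.54, 2.65 and 1.87 CPM in WT (0.34 ± 0.25, adjusted p = 0.769). Pair 3, with 13 promoter reads in KO and 23 in WT, went the other way (-0.98), and the estimate ran from 0.0473 to 0.55 with libraries left out and from 0.0223 to 0.35 under the other settings, never called. The TES region had 6.44, 5.71 and 9.49 CPM in KO and 6.79, 7.79 and 8.94 CPM in WT (-0.16 ± 0.16, adjusted p = 0.827), with no common direction.

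Sox10 was the member with lower estimates in KO in all 3 regions, none of them called. Its promoter window held 27, 17 and 9 reads in KO and 23, 29 and 15 reads in WT, which is 0.972, 0.815 and 0.637 CPM in KO and 1.12, 1.15 and 1.22 CPM in WT. Every KO library was below every WT library (log2 fold change -0.46 ± 0.32, adjusted p = 0.745), at counts so low that the interval ran from -1.15 to 0.22. The gene body had 29.7, 25.7 and 26.6 CPM in KO and 38.0, 33.0 and 21.5 CPM in WT (-0.22 ± 0.11, adjusted p = 0.650), and the TES region 21.5, 13.4 and 13.4 CPM in KO and 27.5, 16.8 and 13.0 CPM in WT (-0.27 ± 0.11, adjusted p = 0.574). In both, KO was lower in pairs 1 and 2 and higher in pair 3. The body estimate ran from -0.36 (without KO 3 or WT 3, adjusted p = 0.213 and 0.211, limma-voom) to -0.12 (without pair 1) with libraries left out, and that of the TES region from -0.34 to -0.18.

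The windows of Sox10 need care. GENCODE vM21 starts the gene 750 bases upstream of the RefSeq start, outside the RefSeq promoter window, while the starts of the other 4 genes differ by 2 to 93 bases between the annotations. The sources used here do not say which start was used for counting, so the low promoter count of Sox10 cannot be read as an empty promoter. Of its TES window, 41.0% (862 bases) was shared with the TES window of Polr2f, a subunit gene of the nuclear RNA polymerases that ends from the other side. The Polr2f TES region had 18.7, 11.7 and 14.4 CPM in KO and 21.8, 14.4 and 12.8 CPM in WT (-0.16 ± 0.12, adjusted p = 0.774), and its gene body -0.06 ± 0.09. Reads in the shared stretch count for both genes.

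Omg had 17.2, 8.34 and 9.98 CPM in its gene body in KO libraries, against 14.4, 7.36 and 7.56 CPM in WT libraries 1 to 3. KO was higher in each pair by 0.26, 0.18 and 0.40 on the log2 scale, with overlap between the groups (0.27 ± 0.13, adjusted p = 0.623). Its promoter had 3.74, 2.01 and 2.41 CPM in KO and 3.91, 2.77 and 2.36 CPM in WT (-0.17 ± 0.20, adjusted p = 0.862), and its TES region 6.19, 3.50 and 4.88 CPM in KO and 7.96, 3.68 and 4.31 CPM in WT (-0.15 ± 0.17, adjusted p = 0.860). Neither of these had a common direction over the pairs.

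All 3 Omg windows lay entirely inside the counted gene body of Nf1, which is transcribed from the opposite strand, so polymerases crossing Nf1 add to each of them. The Nf1 body carried 1.38 ± 0.146 CPM per kilobase in KO and 1.43 ± 0.189 in WT (log2 fold change -0.05 ± 0.05, adjusted p = 0.812). The Omg body density was 4.33, 2.33 and 2.26 times that of Nf1 in KO and 3.41, 2.07 and 1.62 times in WT, thus above it in every library. The level over Omg was thus above the mean of the Nf1 body. Density along Nf1 was not examined, and the reads of the 2 genes cannot be separated.

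The pausing index, the ratio of promoter to gene body density, was low in the whole set. It averaged 1.29 ± 0.147 in KO and 1.70 ± 0.386 in WT for Olig1, 2.00 ± 0.600 in KO and 1.67 ± 0.649 in WT for Olig2, and 2.80 ± 1.68 in KO and 2.45 ± 0.602 in WT for Cspg4. For Sox10 it was 0.552 ± 0.0900 in KO and 0.756 ± 0.269 in WT, and for Omg 1.35 ± 0.0809 in KO and 1.86 ± 0.308 in WT. The median over 11725 genes was 7.30, and the 5 genes stood at its 6.94, 9.67, 16.6, 1.59 and 7.94 percentiles in the same order. By library, the median over genes was 8.93, 8.65 and 4.17 in KO 1 to 3 and 8.36, 8.61 and 4.30 in WT 1 to 3. In Sox10 and Omg the limits on their windows given above apply to this ratio too.

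No member ratio differed between KO and WT at an adjusted p under 0.1 (limma on log2 ratios with the pair as a block), beside 4 of 12096 genes for the promoter ratio (0.0331%) and 1 of 12076 for the TES ratio (0.00828%). At an unadjusted p under 0.05 stood 1 of the 10 member ratios, that of the Omg promoter, beside 10.7% of promoter and 7.27% of TES ratios over all genes. The Omg ratio was lower in KO in each pair (log2 difference -0.44 ± 0.17, adjusted p = 0.389), and that of Olig2 was higher in each pair (0.29 ± 0.18, adjusted p = 0.587). Olig1 (-0.39 ± 0.19, adjusted p = 0.508), Cspg4 (-0.05 ± 0.31, adjusted p = 0.976) and Sox10 (-0.39 ± 0.29, adjusted p = 0.662) had no common direction.

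Density in the TES window, set against the body, divided the set. Sox10 (2.60 ± 0.544 in KO and 2.73 ± 0.480 in WT) and Cspg4 (1.67 ± 0.400 in KO and 1.92 ± 0.229 in WT) lay above the median of all genes, 1.15. Olig2 (0.850 ± 0.0115 in KO and 0.851 ± 0.102 in WT), Omg (0.584 ± 0.0901 in KO and 0.747 ± 0.0503 in WT) and Olig1 (0.422 ± 0.0470 in KO and 0.504 ± 0.0878 in WT) lay below it. Olig1 and Omg were lower in KO in each pair, and the adjusted p of the 5 differences (limma) ran from 0.696 (Omg) to 0.996 (Olig2). The limits on the TES windows of Sox10, Olig2 and Omg given above apply to this ratio too. The TES window of Polr2f carried 7.13 CPM per kilobase in KO and 7.77 in WT, against 7.67 and 9.09 in that of Sox10. The Sox10 ratio can therefore not be given to Sox10 alone.

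**Figure D5:**
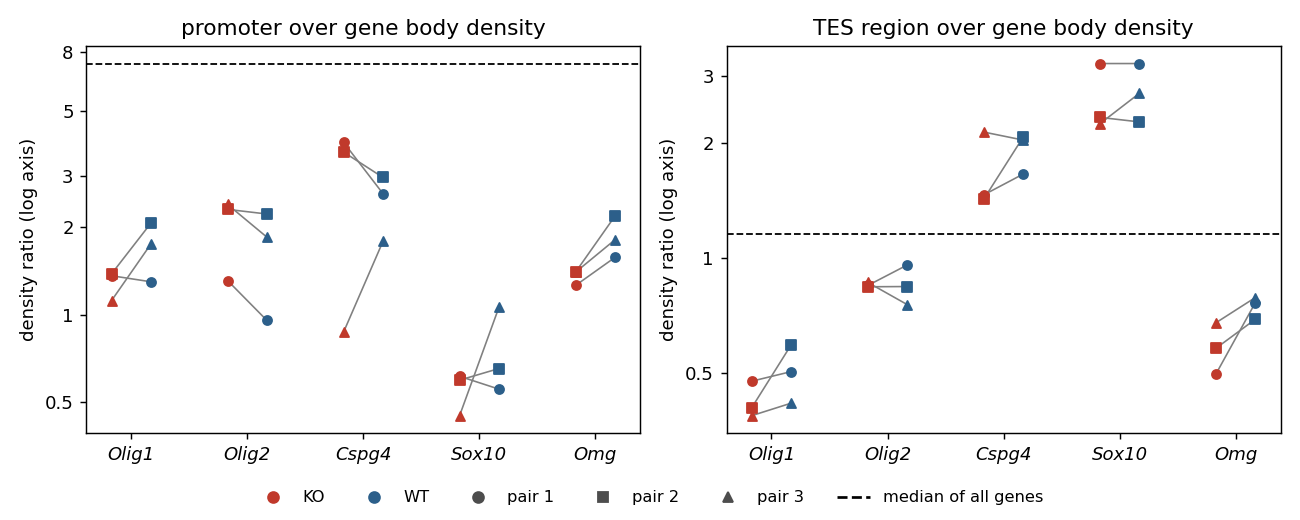
Promoter to gene body (left) and TES region to gene body (right) density ratios per library on a log axis, with KO left (red), WT right (blue), pairs joined and the median of all genes dashed (7.30 and 1.15). All promoter ratios of the 5 genes lie below the median, and the TES ratios of Cspg4 and Sox10 lie above theirs. The dashed lines average the 6 libraries, and in pair 3 the median promoter ratio was lower (4.17 in KO and 4.30 in WT).

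Over the 4 wider lists of the lineage, no region was called at an adjusted p under 0.1 in any class, and edgeR and DESeq2 called none. The lists had 20 of 25 fate regulators, 18 of 22 signals and receptors, 13 of 17 genes of the precursor surface and matrix, and 16 of 30 genes of myelin and maturing oligodendrocytes with counts. Their median gene body log2 fold changes were 0.05, -0.04, -0.07 and -0.06, close to -0.01 over all genes. At an unadjusted p under 0.05, 2 of 20, 0 of 18, 0 of 13 and 0 of 16 gene bodies were higher in KO, beside 4.82% of all gene bodies. Lower in KO were 2 of 20, 3 of 18, 2 of 13 and 2 of 16, beside 3.59%. In the promoters 1 was higher (7.55% of all) and 0 lower (2.40%). In the TES regions 0 were higher (1.40%), and 3 of 20, 4 of 18, 1 of 13 and 2 of 16 were lower (4.84%). In gene bodies and TES regions, the share lower in KO thus exceeded that of all genes in each list. The counts are small, the lists were not matched for level, and no list test was run.

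Gene by gene, the smallest p among the fate regulators was that of Sox6, a SoxD factor that restrains precursor differentiation. Its gene body had 1204, 722 and 1021 CPM in KO and 1486, 810 and 1102 CPM in WT (-0.20 ± 0.04, adjusted p = 0.131), lower in each pair. Egfr, the receptor for the growth factor in the medium, had 762, 287 and 427 CPM in KO and 878, 292 and 482 CPM in WT (-0.15 ± 0.05, adjusted p = 0.426). Tnr, an extracellular matrix glycoprotein, had 405, 347 and 551 CPM in its gene body in KO and 451, 403 and 565 CPM in WT (-0.14 ± 0.05, adjusted p = 0.455). Qk, an RNA-binding protein of myelinating cells, had 1954, 639 and 770 CPM in KO and 2177, 697 and 814 CPM in WT (-0.13 ± 0.04, adjusted p = 0.337). Each of these 4 gene bodies was lower in KO in all 3 pairs, but genes picked for the smallest p in a fit by pair tend to have a single sign.

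In the promoters the smallest p of the lists belonged to Id4, an inhibitor of basic helix-loop-helix factors (0.24 ± 0.12, adjusted p = 0.628), Fgfr3, a growth factor receptor (0.42 ± 0.19, adjusted p = 0.593), Megf11, a transmembrane protein (0.38 ± 0.22, adjusted p = 0.691), and Gal3st1, which makes the myelin lipid sulfatide (-0.30 ± 0.19, adjusted p = 0.721). In the TES regions they were Tcf12, an E protein that pairs with OLIG factors (-0.57 ± 0.13, adjusted p = 0.166), Fgfr3 (-0.41 ± 0.13, adjusted p = 0.396), Rlbp1, a retinoid-binding protein (-0.69 ± 0.16, adjusted p = 0.217), and Qk (-0.21 ± 0.08, adjusted p = 0.518). All 4 of these TES estimates were lower in KO in each pair. A single sign was seen in 30.2% of all regions, and genes picked for the smallest p tend to have one. The median TES log2 fold change over all genes was itself -0.08.

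The gene bodies whose profile over the 6 libraries was most like the mean of the 5 lineage genes were Sec61a1 (Pearson r = 0.999), Rpl12 (0.998), Mlycd (0.998), Amdhd2 (0.997) and Ncl (0.997), of 12087 compared. That mean profile was 0.71, -0.39 and -0.18 on the centred log2 scale in KO and 0.74, -0.52 and -0.35 in WT libraries 1 to 3. It thus sets pair 1 apart from the others, and r with so few libraries rests on that pair. Rpl12, for example, had 69.7, 30.9 and 35.5 CPM in KO and 74.3, 28.9 and 33.8 CPM in WT.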

How the data were processed

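POLR2A ChIP-seq of NPCs was analysed from read counts. The authors counted reads in promoter, gene body and TES windows with HOMER and deposited whole-number counts without normalization for 12107 genes, after removing genes that lacked signal in KO cells. Among the tools in the submitters' processing notes are BWA, MACS2, HOMER and bcl2fastq 2.20, and the build there is GRCm38 (mm10). The sources used here do not name the annotation behind the windows. The authors also deposited log2 CPM (TMM and voom) of the same counts, used here only as an alternative.

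All 36321 regions were TMM-scaled and fitted together with limma-voom (R 4.3.3, edgeR 4.0.16, limma 3.58.1), with the pair as a block, and called at an adjusted p under 0.1. DESeq2 1.42.0 and edgeR were alternatives. The median SE of a log2 fold change was 0.17 in promoters, 0.09 in gene bodies and 0.20 in TES regions. Ratios took counts with 0.5 added and needed an average of 10 counts or more in each window. Log2 values of single pairs used CPM with 0.05 added. Lengths came from RefSeq, which matched 11805 genes (97.5%).

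Groups and pairs come from the sample titles. Deviations from the group means were shared within a pair (correlation 0.89, 0.76 and 0.86 in gene bodies, 0.77, 0.61 and 0.68 in TES regions, and 0.71, 0.65 and 0.69 in promoters). Libraries of the same group differed far beyond counting noise (chi-square over its degrees of freedom 28.5 to 76.5). Where replicates are not separate cultures, p-values measure technical spread. The tests were run first on simulated counts with known changes. Members and lists were chosen with earlier results of these data known. Named were all members, genes overlapping their windows, the gene with the smallest p of each wider list and class, and the 5 most alike gene bodies; Fabp7 and Stmn2 were picked after their values were seen.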

Additional observations from a re-analysis of the deposited data

How the results depend on the processing

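No member region was called under any of 19 alternatives, though DESeq2 gave no adjusted p for the promoters of Cspg4, Sox10 and Omg. The count over all 36321 regions was 49, with 51 by edgeR and 59 by DESeq2, but 18 with TMM on gene bodies only, 20 with library totals, 85 with each class on its own and 125 without X- and Y-linked genes, an alternative chosen after seeing the data. It ran from 11 (without pair 2) to 546 (without KO 1) when libraries were left out, with 382 without pair 1, 298 without pair 3, 545 without WT 1, 143 without KO 2 and 312 without KO 3 or WT 3. Without the replicate block it was 0, with 127 regions at an unadjusted p under 0.05, and the Olig1 promoter and TES region turned to 0.0155 and 0.13 and the Olig2 promoter had 0.32 ± 0.44 (SE). Of 150 member fold changes under whole-data alternatives, 144 kept their sign. The Olig1 TES region turned to 0.0034 with edgeR, 0.0058 with DESeq2, 0.0753 with each class on its own and 0.0187 with the deposited log2 CPM. Of 135 with libraries left out, 118 kept it. With the pair as a block, a library left without its partner adds little to the comparison of KO with WT. Fold changes without a single library thus nearly repeat those without its pair, and the 135 are not separate checks. The ranges across 0 were -0.21 to 0.0463 (Olig1 promoter), -0.0678 to 0.0606 (Olig1 TES region), -0.18 to 0.0649 (Olig2 gene body), -0.30 to 0.15 (Olig2 TES region), -0.26 to 0.0073 (Cspg4 TES region) and -0.26 to 0.0505 (Omg TES region). Of 75 member ratios, 71 kept their sign, and 4 turned without pair 3, with ranges of -0.36 to 0.43 (Cspg4 promoter), -0.66 to 0.0131 (Sox10 promoter), -0.0901 to 0.0955 (Olig2 TES) and -0.13 to 0.0198 (Sox10 TES). Over all genes, 4 promoter ratios were called, but 7 with TES counts in the denominator, 12 to 353 with a pair left out, and 0 with no trend of the spread or no block (1288 and 29 at an unadjusted p under 0.05). The 1 call of the TES ratio became 4 to 59 with a pair left out and 0 with no block (277 unadjusted). Lists kept a count of 0 in 202 of 210 fits, and the other 8, all without pair 1 or 3, had 1 to 3 calls. Medians of the 4 wider lists moved by less than the SD over the list in all 84 fits, with another sign in 9, and those of the other lists with at least 2 genes moved by more in 7 fits, all without pair 1 or 2. The cause of these shifts was not tested. The Sox10 promoter held 9 to 29 reads a library.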
